A study of Mus musculus with 14 samples.

Results

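The genes described here are 9 core members of the hedgehog pathway: the ligand Shh, the receptor Ptch1, the coreceptor Boc, the signal transducer Smo, the negative regulator Sufu, the transcription factors Gli1, Gli2 and Gli3, and the ligand-binding inhibitor Hhip. They were chosen by gene symbol, and all 9 were found among the 52459 symbols of the deposited gene matrices and among the 17732 genes that passed the filter on low counts. RNA was measured by sequencing in 14 libraries of primary cortical neurons from E16.5 mouse embryos, after 6 days in culture. Every culture was silenced on day 5 with 1 µM TTX, a sodium channel blocker, and 100 µM APV, an NMDA receptor blocker. One library of each culture followed 1 h of depolarisation with 50 mM KCl, and the other was taken at basal.

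In the SE line, 2 cultures carried the Brg1 S1382E knock-in allele, a glutamate in place of serine 1382 of the chromatin remodeller BRG1, and 1 culture was a wild-type littermate control. The SA line comprised 2 cultures with the Brg1 S1382A knock-in allele, an alanine at the same residue, and 2 wild-type littermate controls. KCl and basal libraries with the same replicate number are called a culture here, although the labels do not say that they are paired. There were 8 groups, of which the 2 groups of the SE-line wild type held a single library. Zygosity of the alleles and whether a library came from 1 embryo or several are not given in the sources used here. Nothing states that replicates were separate cultures or animals, so p-values measure the spread between these libraries, which may be technical.

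Hedgehog signalling is a secreted-ligand pathway. Without ligand, PTCH1 holds SMO inactive, SUFU retains the GLI proteins and GLI3 is cut to a repressor; ligand binding to PTCH1 and its coreceptors frees SMO to act in the primary cilium, and full-length GLI proteins then activate transcription. Ptch1, Gli1 and Hhip are themselves widely used target genes of the pathway. In the forebrain SHH patterns ventral tissue and acts on dividing progenitors, and in the mouse cortex it is also made by neurons, while BOC takes part in forming connections between cortical neurons.

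Library totals lay between 22625916 and 23096206 estimated counts, so depth was nearly equal. The first principal component held 71.6% of the variance of log2 expression and separated the 6 SE-line libraries, at 56 to 62, from the 8 SA-line libraries, at -63 to -24.6. In the SA line the first wild-type culture, WTSA1 below, lay farthest out with its KCl and basal libraries, at -62.3 and -63. Line, cross and any batch in which a line was prepared cannot be told apart. The labels call the cells cortical neurons, and 15 markers of glutamatergic neurons summed to 4660 to 5210 CPM in SE-line libraries and 2330 to 4350 CPM in SA-line libraries. CPM here is the count scaled to the library total after TMM scaling. Astrocyte, progenitor and other non-neuronal markers were present as well, and their values are given beside the results they move with.

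Shh, the secreted ligand of the pathway, was the member whose level changed with depolarisation, and its response differed between the 2 lines. In SE cultures it was 3.61-fold higher after KCl. In the SA line 3 of 4 cultures, matched by replicate number, had less Shh after KCl than at basal. Shh lies at chr5:28456815-28467256 on the minus strand of GRCm38, and 1 annotated transcript of 2847 bases carried all of its counts. In SE cultures it reached 33.1 and 35.8 CPM after KCl, against 9.29 and 9.79 CPM at basal. The SE-line wild type had 34.3 CPM after KCl and 11.2 CPM at basal. The KCl libraries of this line lay above every other library of the series, while its basal libraries lay close to the range of the SA line.

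SA cultures had 5.60 and 5.35 CPM of Shh after KCl, against 10.7 and 9.50 CPM at basal. The wild type of the SA line had 7.47 and 4.55 CPM after KCl, against 6.25 and 7.97 CPM at basal. Groups thus did not overlap between treatments in SA cultures but did in their wild type, where the ratio of KCl to basal was 1.2 in WTSA1 and 0.571 in the other culture. The estimated counts behind these levels were 697 and 772 after KCl and 206 and 215 at basal in SE, and 126 and 124 after KCl and 246 and 222 at basal in SA.

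The KCl response of Shh was tested with edgeR's quasi-likelihood test over all 17732 genes. In SE the log2 fold change was 1.85 (standard error 0.219), with an adjusted p of 0.00187, and Shh was the single member called there, where 1.66% of all genes were called. In SA it was -0.88 (standard error 0.223), with an unadjusted p of 0.00293 and an adjusted p of 0.177, so no member was called, against 0.846% of all genes. This adjusted p was 0.0133 when WTSA1 was left out of the fit, and 0.0435 or 0.0439 without the KCl library of WTSA1 or of the other wild-type culture of that line, although the change itself stayed at -0.88. DESeq2 gave an adjusted p of 0.0463. In wild type the 3 cultures averaged to 0.38 (standard error 0.179, adjusted p 0.774), a mean of cultures that moved in different directions, and 1.41% of all genes were called. Without the SE-line wild type libraries that value was -0.24, and without WTSA1 it was -0.00079.

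**Figure D1:**
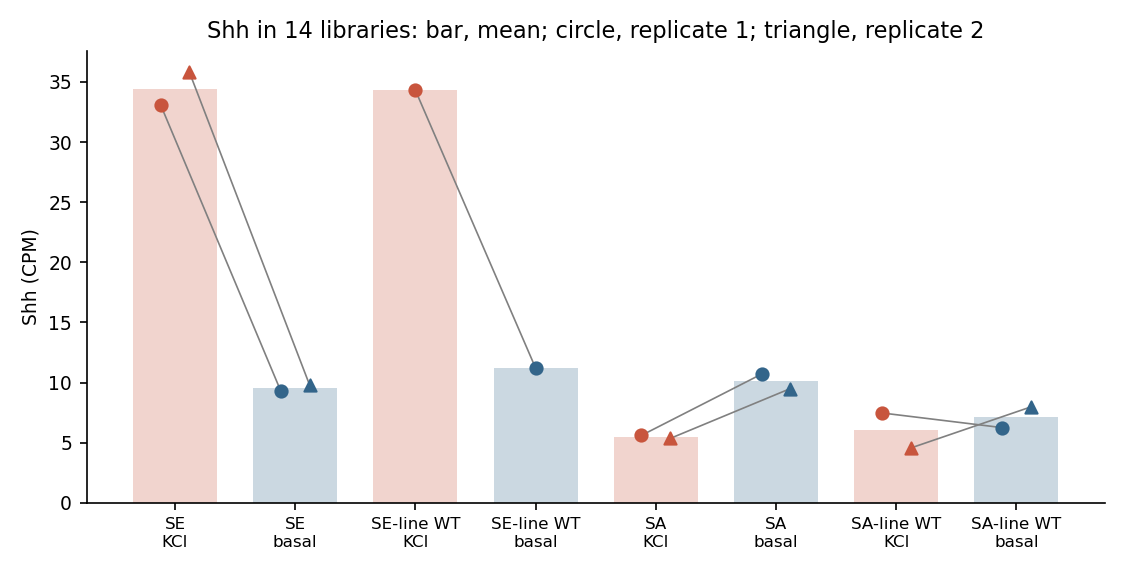
Shh level in CPM (vertical axis, from 0) in each of the 14 libraries by group, with bars for group means, circles for replicate 1 and triangles for replicate 2. The 3 KCl libraries of the SE line stand at 33.1 to 35.8 CPM, and the 11 other libraries lie between 4.55 and 11.2 CPM.

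The difference in response between the lines was itself tested. All 3 SE-line cultures averaged 34.4 ± 1.37 CPM after KCl and 10.1 ± 0.984 CPM at basal (SD, n = 3), a log2 change of 1.77 (standard error 0.178, adjusted p 0.000451 in edgeR, with 2.81% of all genes called). The 4 SA-line cultures averaged 5.74 ± 1.24 CPM after KCl and 8.60 ± 1.93 CPM at basal (SD, n = 4), a log2 change of -0.56 (standard error 0.157, adjusted p 0.157, with 2.02% of all genes called). The response of the SE line minus that of the SA line was 2.33 on the log2 scale (standard error 0.237, 95% interval 1.80 to 2.87), with an adjusted p of 0.00446 in edgeR. Shh ranked 10th by p among the 27 genes called, which are 0.152% of the genes tested. Without WTSA1 the difference was 2.62 (adjusted p 0.000248). Between the wild-type groups alone it was 1.86, with an adjusted p of 0.713 on 1 SE-line culture against 2, so the direction was present there without passing the test.

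At basal the lines did not differ detectably in Shh, with a log2 difference of 0.25 for the SE line minus the SA line (standard error 0.166, 95% interval -0.12 to 0.62, adjusted p 0.247 in edgeR). Of 15 immediate early genes, the first transcripts induced by depolarisation, 6 had a larger response in the SE line and 1 a smaller one. The latter was Nr4a2 (log2 difference in response -2.99). The other 8 were not called as different, and 0.152% of all genes were called. The summed level of the 15 genes was 14000 to 17600 CPM after KCl and 263 to 271 CPM at basal in SE-line libraries. It was 4310 to 4720 CPM after KCl and 198 to 235 CPM at basal in SA-line libraries. Per culture the summed level after KCl over that at basal was 51.7 to 66.1 in the SE line and 18.9 to 23.5 in the SA line. The summed level was thus higher after KCl in all 7 cultures, and more so in the 3 with the higher Shh. The part of this difference in the Shh result was not tested.

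Strand-specific counting is not stated. The antisense gene 9530036O11Rik shares 446 exon bases with Shh and had 19, 13 and 23 counts after KCl and 9, 10 and 11 counts at basal in the SE line. Its counts were 4 to 8 in SA-line libraries. Gm26894, a noncoding gene also on the other strand, shares 361 exon bases with Shh. It had 19, 28 and 24 counts after KCl and 24, 17 and 23 counts at basal in the SE line, and 6 to 14 in SA-line libraries. All of these are far below the Shh counts. How many reads of either gene were assigned to Shh was not tested. Shh was also set against markers of the ventral forebrain, where it has its best known source: 10 such genes summed to 82.0 to 95 CPM after KCl and 67.5 to 80.8 CPM at basal in the SE line, and to 46.2 to 87.9 CPM after KCl and 47.2 to 80.5 CPM at basal in the SA line. Of the 8 genes of that list that were tested, 3 were higher in the SE line at basal, 3 lower and 2 not called. Foxa2, a floor-plate gene of that list, was at 0 in all 3 basal SE-line libraries but not in all 3 KCl libraries of that line. Fezf2 and Tbr1, transcription factors of deep-layer cortical neurons, were higher in the SE line at basal. They belong to the list of 15 glutamatergic markers, of which 6 were higher, 2 lower and 7 not called. Of all genes, 21.8% were called higher and 26.0% lower. Fezf2 averaged 158 ± 9.29 CPM there (SD, n = 3) and 12.1 ± 4.39 CPM in the SA line (SD, n = 4), and Tbr1 averaged 453 ± 19.4 CPM in the SE line and 57.6 ± 6.32 CPM in the SA line. Cux2, an upper-layer gene, and Neurod1 were the 2 lower, with Cux2 at 9.36 ± 0.381 CPM in the SE line and 86.3 ± 11.1 CPM in the SA line. These are bulk libraries, in which fewer cells of a type and less RNA per cell cannot be told apart.

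None of the other 8 members was called for KCl in any genotype. Their log2 changes ranged from -0.90 to 0.35 in SE, from -0.19 to 0.28 in SA and from -0.54 to 0.12 in wild type, and the lowest adjusted p among them was 0.702 in edgeR. The widest change was that of Hhip, the membrane-bound protein that binds and sequesters hedgehog ligands. Hhip had 0.522 and 0.882 CPM after KCl and 1.26 and 1.37 CPM at basal in SE, and 0.871 CPM after KCl and 1.10 CPM at basal in the SE-line wild type. All 3 KCl libraries lay below all 3 basal libraries of that line, but the log2 change of -0.90 in SE (standard error 0.449, unadjusted p 0.0747, adjusted p 0.702) did not pass, and the levels rest on 11 to 30 counts.

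**Figure D2:**
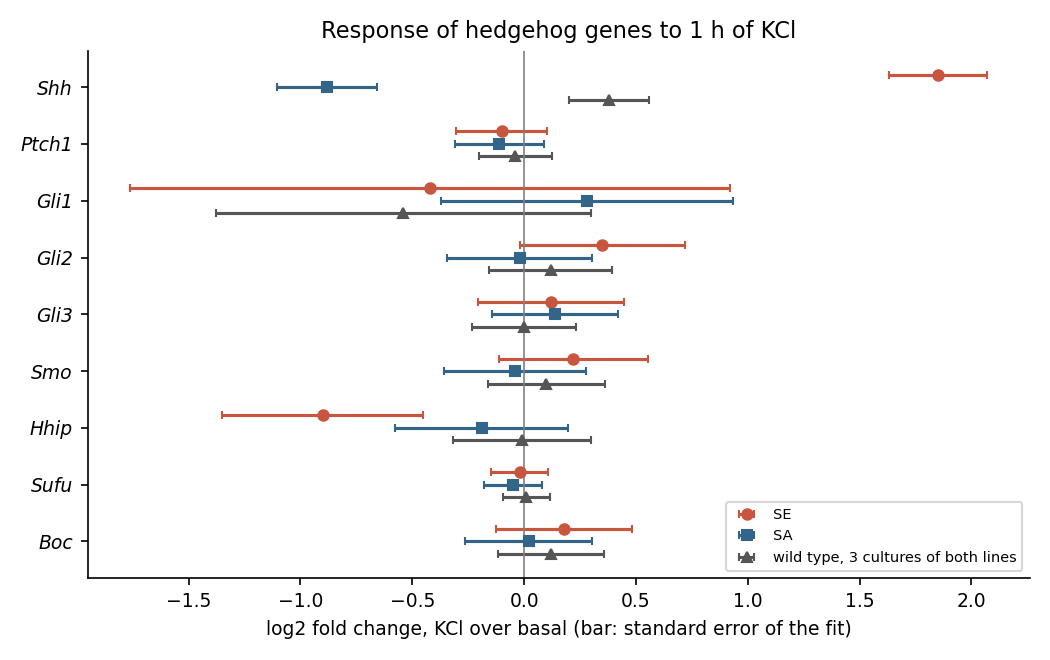
Log2 fold change of each hedgehog gene for KCl over basal (horizontal axis) in SE, SA and wild type, with bars for the standard error of the fit. Shh stands at 1.85 in SE and -0.88 in SA, and the bar of Gli1 in SE is wide, with 2 to 5 counts in its libraries.

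Ptch1, the receptor and a target gene of the pathway, showed no detectable response in the cultures where its ligand transcript was higher. It had 21.8 and 21.9 CPM after KCl and 26.2 and 20.5 CPM at basal in SE, and 21.4 CPM after KCl and 27.2 CPM at basal in the SE-line wild type. Over the 3 SE-line cultures its log2 change was -0.18 (standard error 0.166, adjusted p 0.839 in edgeR), and the treatments overlapped. Gli1, the member most widely used as a readout of active signalling, had 2 and 3 counts after KCl and 2 and 5 counts at basal in SE, and 1 and 4 counts in the KCl and basal libraries of the SE-line wild type. A change of Gli1 within that line was not detectable at this depth. All KCl libraries were taken after 1 h, so any later change of Ptch1 or Gli1 was not measured. Ptch1 (-0.67 to 0.31), Smo (-0.63 to 0.95) and Sufu (-0.29 to 0.34) had response differences between the lines whose 95% intervals on the log2 scale included 0.

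The second pattern among these genes was a difference between the lines. At basal 7 of the 9 members were lower in the SE line than in the SA line, against 26.0% of all genes called lower and 47.8% called in either direction. The 7 were Ptch1, Boc, Smo, Gli1, Gli2, Gli3 and Hhip, and the 2 not called were Shh and Sufu. Of these, Gli1 passed the filter on low counts through its SA-line libraries alone, which fixed the direction in which it could be called. In the KCl libraries too, the SE line lay below the SA line without overlap for each of these 7. The share of all genes that separate in this way was not computed, so this count has no background to be read against. The median log2 difference at basal was -1.86 over the 9 members and 0.003 over all genes tested. The comparison sets 3 SE-line cultures against 4 SA-line cultures, mutant and wild type weighted equally per culture, in edgeR's quasi-likelihood test.

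Ptch1 (chr13:63508328-63573598, minus strand, GRCm38) had 26.2 and 20.5 CPM in SE and 27.2 CPM in the SE-line wild type at basal, against 50.0 and 54.2 CPM in SA and 68.3 and 52.0 CPM in the SA-line wild type. The lines did not overlap, and the level was 2.27-fold lower in the SE line (log2 -1.19, standard error 0.158, adjusted p 0.000263). Most Ptch1 counts came from 2 of its 10 annotated transcripts. Ptch1-202, of 7002 bases, held 68.5% of them in the SE line and 59.4% in the SA line, and its share of Ptch1-201 and Ptch1-202 together overlapped between lines, at 60.9% to 79.6% per SE-line library and 53.4% to 75.5% per SA-line library.

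Boc, a cell-surface coreceptor that binds SHH together with PTCH1, had 3.74 and 5.28 CPM in SE and 3.88 CPM in the SE-line wild type, against 10.6 and 16.8 CPM in SA and 19.7 and 16.0 CPM in the SA-line wild type. It was 3.64-fold lower in the SE line (log2 -1.86, standard error 0.235, adjusted p 0.000197), again without overlap. Smo, the transmembrane protein that PTCH1 restrains, had 14.5 and 12.6 CPM in SE and 14.6 CPM in the SE-line wild type, against 48.5 and 77.2 CPM in SA and 102 and 60.8 CPM in the SA-line wild type. The SE-line levels lay close together while the SA-line levels spread widely, and Smo was 5.13-fold lower in the SE line (log2 -2.36, standard error 0.267, adjusted p 0.000102).

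Gli3, the main repressor of the family when cut, had 2.89 and 3 CPM in SE and 3.56 CPM in the SE-line wild type, against 14.3 and 19.5 CPM in SA and 27.5 and 20.7 CPM in the SA-line wild type. It was 6.43-fold lower in the SE line (log2 -2.69, standard error 0.247, adjusted p 3.33e-05). Gli2, the main activator of the family, had 2.71 and 1.87 CPM in SE and 2.92 CPM in the SE-line wild type, against 9.39 and 14.9 CPM in SA and 9.51 and 13.0 CPM in the SA-line wild type. Neither gene overlapped between the lines, and Gli2 was 4.71-fold lower in the SE line (log2 -2.24, standard error 0.279, adjusted p 0.000184).

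Gli1, which amplifies the signal and is transcribed in response to it, had few counts in the SE line. Its 6 SE-line libraries held 17 counts in all, 1 to 5 each, and its 8 SA-line libraries held 608, 36 to 156 each. At basal this gave 0.0902 and 0.228 CPM in SE and 0.183 CPM in the SE-line wild type, against 2.26 and 1.88 CPM in SA and 6.17 and 1.49 CPM in the SA-line wild type. Every SA-line library was above every SE-line library. Gli1 passed the filter on low counts through its SA-line libraries alone, so it could only be called lower in the SE line. The fitted log2 difference of -4.04 (standard error 0.701, adjusted p 0.00123) has a 95% interval of -5.61 to -2.47, and it was -3.36 without WTSA1, whose 6.17 CPM was the highest level of the gene at basal. Gli1 shares 265 exon bases with the antisense gene Gm47200 and 62 with Arhgap9 on the other strand. Arhgap9 had 3 to 9 counts per SE-line library, where Gli1 had 1 to 5, and 7 to 17 per SA-line library. How many reads of these genes were assigned to Gli1 was not tested.

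Hhip had 1.26 and 1.37 CPM in SE and 1.10 CPM in the SE-line wild type at basal, against 3.13 and 1.97 CPM in SA and 3.46 and 1.87 CPM in the SA-line wild type. The groups did not overlap, but the gap between the nearest libraries was small and this call depended most on single libraries (2.10-fold lower in the SE line, log2 -1.07, standard error 0.314, adjusted p 0.0184). It was lost, with an adjusted p of 0.0562 to 0.0765, on leaving out the basal library of SE culture 1 or 2, of SA culture 1 or of WTSA1. Sufu, which binds the GLI proteins in the cytoplasm, had nearly the same level throughout, with 21.6 and 21.6 CPM in SE and 21.1 CPM in the SE-line wild type, against 23.3 and 24.2 CPM in SA and 26.6 and 23.3 CPM in the SA-line wild type. Its libraries did not overlap between lines either, yet the log2 difference of -0.19 (standard error 0.0984, 95% interval -0.41 to 0.03, adjusted p 0.147) did not pass.

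**Figure D3:**
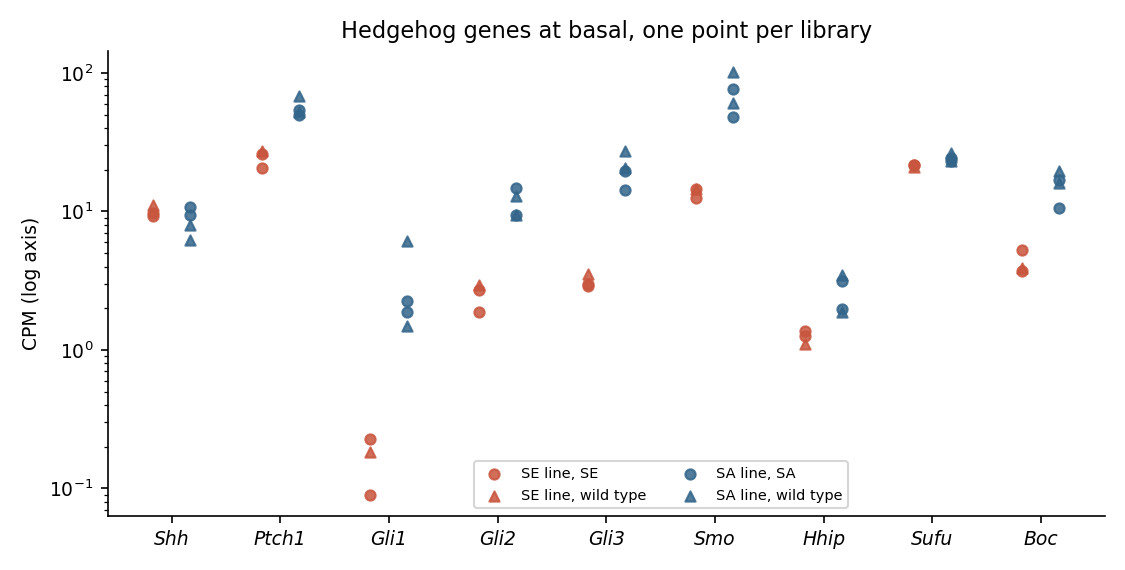
Level of each hedgehog gene in CPM (vertical log axis) in every basal library, by line and genotype. Points of the SE line lie below those of the SA line for Ptch1, Gli1, Gli2, Gli3, Smo, Hhip and Boc, while Shh overlaps and Sufu stays between 21.1 and 26.6 CPM.

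Between genes, levels can be compared per transcript length, in TPM, the authors' length-scaled unit. In the SE line the order of mean TPM was Shh at 11.5 ± 6.97, Sufu at 7.79 ± 0.414, Smo at 5.47 ± 0.518, Ptch1 at 5.17 ± 0.832, Boc at 1.46 ± 0.267, Gli2 at 0.803 ± 0.207, Gli3 at 0.634 ± 0.105, Hhip at 0.191 ± 0.0576 and Gli1 at 0.0422 ± 0.021 (SD, n = 6 libraries of both treatments). Shh and Sufu, Smo and Ptch1, and Gli2 and Gli3 were each within their spread of one another, and the SD of Shh covers its KCl and basal libraries. In the SA line Smo stood first at 30.0 ± 9.76 TPM and Ptch1 next at 13.7 ± 3.78 TPM, followed by Sufu at 9.76 ± 0.909 TPM (SD, n = 8). Boc at 5.54 ± 1.34, Gli3 at 5.14 ± 1.48, Shh at 4.14 ± 1.27 and Gli2 at 3.91 ± 0.991 TPM lay within 1 SD of their neighbours, with Gli1 at 1.27 ± 0.831 and Hhip at 0.633 ± 0.210 TPM last. The place of Shh in the SE line rests on its KCl libraries, at 17.1 to 18.8 TPM. At basal it had 4.82 to 5.66 TPM there, below Sufu at 7.38 to 8.09 TPM and overlapping Ptch1 at 4.49 to 6.33 TPM.

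Promoter letters are shown for 3 of the members that were lower together in the SE line and, beside them, for Sufu, whose difference did not pass. The sequences come from RefSeq (build GRCm38.p6), which gave an entry for 6 of the 9 members. Each is the 250 bases before the start in that entry, 5′ to 3′ on the gene's strand. They are Gli2 at chr1:119053620-119053869 on the minus strand, Smo at chr6:29735247-29735496 on the plus strand, Hhip at chr8:80058009-80058258 on the minus strand and Sufu at chr19:46396646-46396895 on the plus strand. Capitals mark the GLI core CCACCC on either strand and, in Hhip, the palindromic cyclic AMP response element TGACGTCA.
Gli2: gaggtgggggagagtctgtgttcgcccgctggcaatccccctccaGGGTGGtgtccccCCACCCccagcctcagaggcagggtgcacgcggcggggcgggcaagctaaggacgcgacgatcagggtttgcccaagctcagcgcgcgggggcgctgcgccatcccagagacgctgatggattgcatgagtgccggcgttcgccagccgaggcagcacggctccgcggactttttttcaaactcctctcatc
Smo: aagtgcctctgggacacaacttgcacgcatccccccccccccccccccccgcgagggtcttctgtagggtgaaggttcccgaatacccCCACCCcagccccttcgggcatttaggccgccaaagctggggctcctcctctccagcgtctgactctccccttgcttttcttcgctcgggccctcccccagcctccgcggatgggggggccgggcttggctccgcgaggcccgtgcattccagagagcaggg
Hhip: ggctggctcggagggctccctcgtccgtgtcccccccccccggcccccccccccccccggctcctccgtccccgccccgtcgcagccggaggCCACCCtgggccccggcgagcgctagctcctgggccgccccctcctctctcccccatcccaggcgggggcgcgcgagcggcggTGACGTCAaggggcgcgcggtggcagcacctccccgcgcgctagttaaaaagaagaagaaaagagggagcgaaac
Sufu: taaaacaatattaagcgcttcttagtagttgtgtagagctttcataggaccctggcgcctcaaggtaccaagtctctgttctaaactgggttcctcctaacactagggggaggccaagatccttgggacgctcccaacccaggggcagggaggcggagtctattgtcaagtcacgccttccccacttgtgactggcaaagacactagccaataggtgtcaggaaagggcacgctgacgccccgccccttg
The GLI core begins 205 and 192 bases before the start in Gli2, 162 bases in Smo and 158 bases in Hhip. It also begins 170 bases before the RefSeq start in Gli3, whose window is not printed. That window, chr13:15463473-15463722, overlaps 1 annotated exon and lies inside the annotated gene, which starts at 15463235. These letters were in neither the Sufu window nor that of Ptch1, which was also lower in the SE line. The Ptch1 window, chr13:63565736-63565985, lies inside the annotated gene too. For Ptch1 and Gli3 the bases before the annotated start were thus not searched. The core is short and stands in 28.1% of the 32851 promoters of the same length, so a match is a description of the letters and not a site. The full GLI motif GACCACCCA, on either strand, stands in 0.225% of all promoters and in none of the 6 members' windows. TGACGTCA, found in Hhip 75 bases before the start, stands in 1.55% of promoters. The AP-1 motif TGACTCA, on either strand, stands in 4.46% of promoters and in none of these 6.

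Other genes of the pathway were followed in 5 lists by role, again at basal and for the SE line against the SA line. Of 7 tested genes that make, release or resemble the ligand, 3 were higher in the SE line, against 21.8% of all genes called higher, and none was lower: Scube2 (log2 2.25) and Scube1 (1.94), secreted proteins of a family that helps release lipid-modified hedgehog, and Disp2 (1.02), a relative of the ligand exporter DISP1. Scube1 averaged 122 ± 2.66 CPM in the SE line (SD, n = 3) and 32.2 ± 10.2 CPM in the SA line (SD, n = 4). Among 8 coreceptors and other receptors, 6 were lower, against 26.0% of all genes called lower, and none was higher. They included Gas1 (-1.92), a coreceptor of SHH, at 12 ± 0.630 CPM in the SE line and 45.7 ± 11.2 CPM in the SA line, and Lrp2 (-1.56), an endocytic receptor that binds SHH in the forebrain. The glypicans Gpc6 (-2.38), Gpc5 (-2.07), Gpc4 (-1.81) and Gpc3 (-0.89) made up the rest. Cdon, the paralogue of Boc, at -0.50 (adjusted p 0.0799 in edgeR), did not pass.

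Of 16 genes of the primary cilium and its relay, 6 were lower in the SE line, not far above the 26.0% of all genes called lower, and 10 were not called. Evc (log2 -2.70) and Evc2 (-1.22), partners that act with SMO at the base of the cilium, and Stk36 (-1.16), a kinase related to fly Fused, were the widest. Tulp3 (-0.97) and Ift172 (-0.50), which serve transport in the cilium, and Gpr161 (-0.38), a ciliary receptor that restrains the pathway, were the other 3. By contrast, 11 of 20 tested kinases and turnover factors of the GLI proteins were higher and none lower, by 0.23 to 0.81 on the log2 scale, where 21.8% of all genes were called higher. They included the kinases Dyrk2 (0.81), Ulk3 (0.61) and Gsk3a (0.59), the catalytic subunit of protein kinase A Prkacb (0.49), and the ubiquitin ligase adaptors Spop (0.40) and Btrc (0.32).

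Among 16 tested genes described as hedgehog targets in various tissues, 11 were lower in the SE line and 1 was higher. Of all genes, 26.0% were called lower and 21.8% higher. Nkx2-2 (log2 -4.65), Olig2 (-2.75) and Nkx2-1 (-1.13) are transcription factors of ventral neural tissue and, for Olig2, of the oligodendrocyte lineage, and Foxm1 (-3.25), Cdk6 (-2.99) and Ccnd1 (-2.0) act in the cell cycle. Sfrp1 (-3.75), Igf2 (-3.32), Prdm1 (-1.39), Nr2f2 (-0.89) and Nr2f1 (-0.48) were the other genes lower, and Jag2 (0.53), a Notch ligand, was the one higher. Median log2 differences were 0.09 for ligand release, -1.69 for coreceptors, -0.30 for the cilium, 0.28 for kinases and turnover and -1.26 for targets, against 0.003 over all genes. Several of these genes also mark other cell types or dividing cells, and Gas1, Olig2 and Nkx2-1 stand in marker lists as well.

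**Figure D4:**
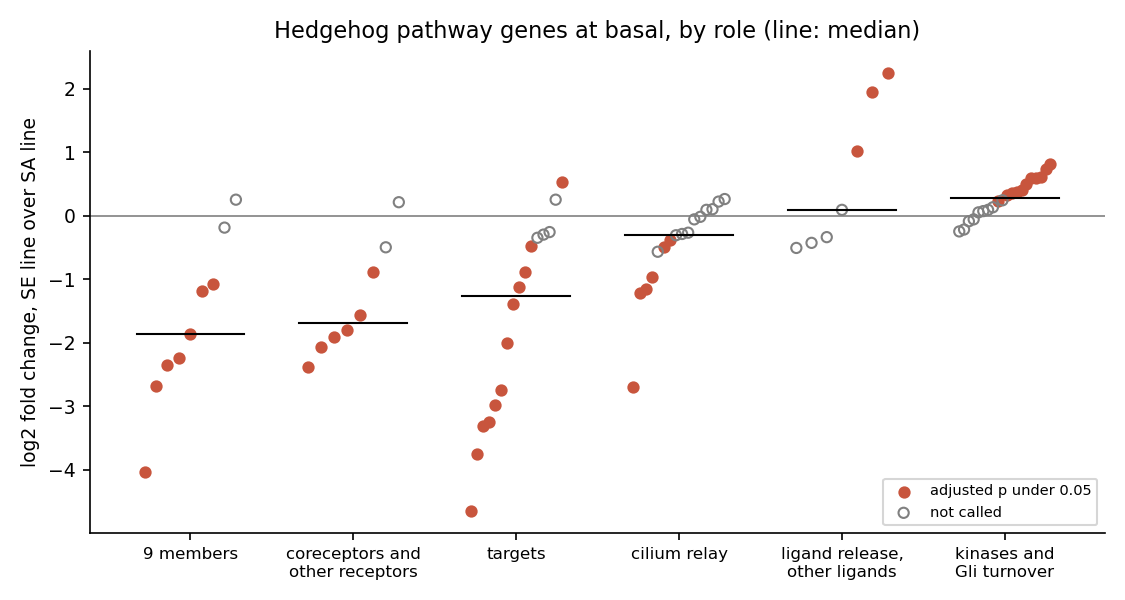
Log2 difference at basal, SE line over SA line (vertical axis), for the hedgehog members and 5 lists of pathway genes by role; filled points passed an adjusted p of 0.05, open points did not, and lines are medians. Medians stand at -1.86 for the members, 0.09, -1.69, -0.30 and 0.28 for ligand release, coreceptors, cilium and kinases, and -1.26 for targets.

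Across the 5 lists, with 7, 8, 16, 20 and 16 genes tested, KCl changed 1 gene. Of all genes, 1.66% were called in SE, 0.846% in SA and 1.41% in wild type, so a single call in these lists lies near those shares. Mycn, a proto-oncogene transcription factor and a hedgehog target in cerebellar progenitors, fell in every genotype, by 0.90 in SE (adjusted p 0.0267 in edgeR), 1.18 in SA (adjusted p 0.00899) and 1.01 in wild type (adjusted p 0.00399) on the log2 scale. It averaged 34.5 ± 2.78 CPM after KCl and 65.8 ± 1.28 CPM at basal in the SE line (SD, n = 3), and 37.8 ± 3.82 CPM after KCl and 81.5 ± 15.3 CPM at basal in the SA line (SD, n = 4). In both lines the treatments did not overlap, and the response of Mycn was not called as different between the lines (0.17 on the log2 scale, adjusted p 1). Over all 7 cultures its log2 change was -1.03 (standard error 0.0881, adjusted p 8.6e-05), where 4.82% of all genes were called. The calls within SE and within SA were lost on leaving out single libraries of that genotype, with adjusted p up to 0.261, and the call in wild type was lost in a fit on wild-type libraries alone (adjusted p 0.371).

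The line difference of the pathway moved together with markers of cell types and of division. The counts by list stand against 26.0% of all genes called lower in the SE line at basal and 21.8% called higher. Progenitor markers were lower in the SE line for 13 of 15 genes and higher for 1, with a summed level of 515 to 572 CPM in basal SE-line libraries and 2180 to 4370 CPM in basal SA-line libraries. Cell cycle genes were lower for 18 of 18, at 120 to 121 CPM in the SE line and 597 to 1440 CPM in the SA line. Astrocyte markers were lower for 13 of 15 (2190 to 2420 CPM in the SE line and 4440 to 6350 CPM in the SA line). The groups did not overlap for any of these 3 lists.

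Oligodendrocyte-lineage markers were lower for 9 of 10 genes (140 to 153 CPM in the SE line and 676 to 835 CPM in the SA line), and GABAergic markers for 12 of 15 (261 to 281 CPM in the SE line and 805 to 878 CPM in the SA line). Markers of microglia were lower for 8 of 10, of endothelial and mural cells for 6 of 7 tested, of meningeal fibroblasts for 11 of 12 and of choroid plexus and ependyma for 7 of 10, and no gene of these 4 lists was higher. Glutamatergic markers were higher in the SE line for 6 of 15 and lower for 2 (4910 to 5210 CPM in the SE line and 2450 to 4170 CPM in the SA line). Ventral telencephalic markers were higher for 3 and lower for 3 of 8 tested, where 21.8% of all genes were called higher and 26.0% lower. Apart from Foxa2 at basal in the SE line, no listed gene was at 0 in all libraries of a line and treatment. The part of cell composition in the lower Ptch1, Boc, Smo, Gli and Hhip levels was not tested.

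**Figure D5:**
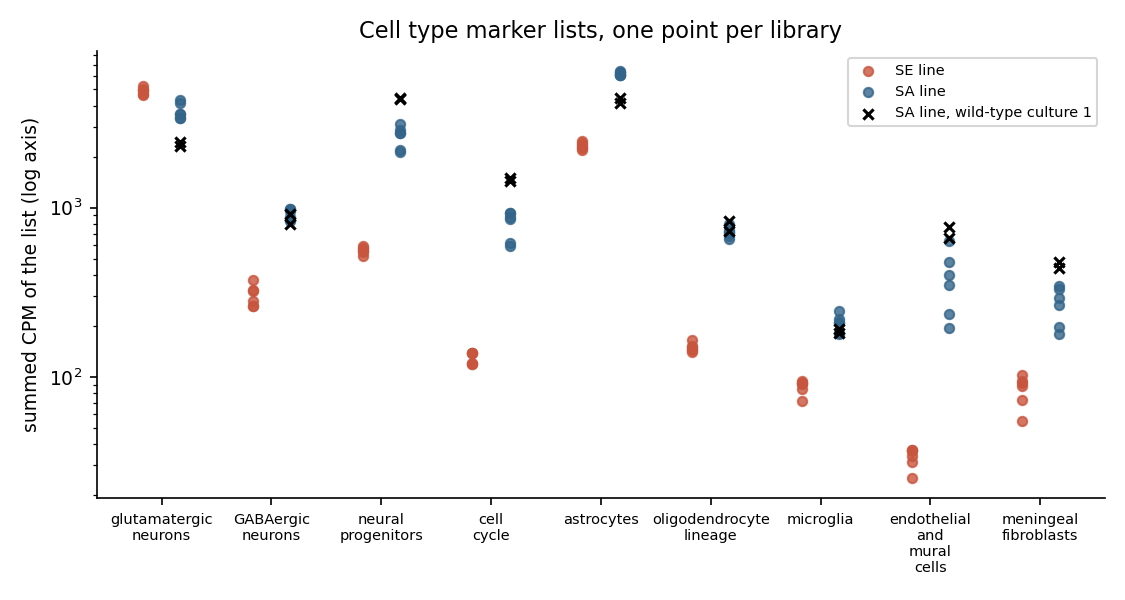
Summed CPM of each cell type marker list (vertical log axis), one point per library by line, with crosses for WTSA1. At basal the SE line lies at 515 to 572 CPM for progenitors and 120 to 121 CPM for cell cycle genes, against 2180 to 4370 CPM and 597 to 1440 CPM in the SA line.

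Neither BRG1 substitution changed a hedgehog gene detectably against the wild type of its own line. No gene of the 17732 was called in edgeR for SE or for SA, at basal or after KCl, or for the difference in KCl response (0% of all genes in each), although 187 and 240 genes had an unadjusted p under 0.05 for SE at basal and after KCl, and 1279 and 2040 did for SA. DESeq2 called 126 genes for SA after KCl, 1 for SE after KCl, 1 for the response difference of SE and none in the other 3 of these comparisons, and no member was among them. For Shh, SE minus wild type was -0.23 at basal and 0.01 after KCl on the log2 scale (adjusted p 1 for both). SA minus wild type was 0.51 at basal (unadjusted p 0.0447, adjusted p 0.621), where 10.7 and 9.50 CPM in SA stood above 6.25 and 7.97 CPM in its wild type, and -0.14 after KCl (adjusted p 0.804). The response of Shh differed by 0.24 between SE and its wild type (95% interval -0.59 to 1.06) and by -0.64 between SA and its wild type (-1.35 to 0.06), so that differences of more than 1 log2 unit were within both intervals.

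For the other 8 members the log2 difference of SE minus wild type ranged from -0.35 to 0.26 at basal and from -0.31 to 1.26 after KCl, the last value being Gli1 on 1 to 3 counts per library. SA minus wild type ranged from -0.89 to 0.11 at basal and from -0.73 to -0.07 after KCl, and none of these was called. The smallest unadjusted p of these was 0.0571, for Ptch1 after KCl, with 47.2 and 49.1 CPM in SA against 77.6 and 52.1 CPM in its wild type (log2 -0.43, standard error 0.198, adjusted p 0.442). Both SA libraries lay below both wild-type libraries there, and of the wild-type libraries WTSA1 was the farther from them.

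Within the SA line WTSA1 had the highest basal level of most members, in some by a small margin. Hhip was at 3.46 CPM there and at 3.13 CPM in SA culture 1, and Sufu at 26.6 CPM there and at 24.2 CPM in SA culture 2. WTSA1 was the highest of the 4 cultures in Ptch1, Gli1, Gli3, Smo, Hhip, Sufu and Boc, with Gli2, at 9.51 CPM, and Shh, at 6.25 CPM, as exceptions. Its cell cycle genes summed to 1490 CPM after KCl and 1440 CPM at basal and its progenitor markers to 4480 CPM after KCl and 4370 CPM at basal, the highest of the series, and its glutamatergic markers to 2330 and 2450 CPM, the lowest. Without it all 7 members stayed lower in the SE line at basal, from Gli1 at -3.36 to Hhip at -0.82 (adjusted p 0.000114 and 0.0362 in edgeR).

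Over the 14 libraries, after centring log2(CPM + 1) within each line and treatment, the members differed in how far they deviated together. Pearson's r among the 8 other than Shh ran from -0.53 for Gli2 with Hhip to 0.91 for Smo with Sufu. It was 0.88 for Smo with Gli3 and 0.86 for Smo with Ptch1, but 0.21 for Gli2 with Ptch1, -0.36 for Gli2 with Gli1 and 0.08 for Hhip with Boc. Shh ran from -0.29 with Boc to 0.18 with Hhip. Among 13086 genes, those most like Smo were Ajuba, Vim and Fgfr1 (r 0.996, 0.995 and 0.994), and Vim is also on the progenitor list. Those most like Gli3 were Sgms1, Cep55 and Cfap161 (0.974, 0.967 and 0.965), and those most like Ptch1 were Tln2, Grik3 and Ltbp2 (0.970, 0.970 and 0.950). The closest to Shh, Zfp324, Fam122a and Tbc1d8, reached 0.877, 0.810 and 0.783. These values describe libraries that share cultures, among them those of WTSA1, which had the highest basal level of most members in its line.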

How the data were processed

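Total RNA was extracted with TRIZOL and purified on columns before sequencing of 14 libraries, per the labels' protocols. Per the submitters' processing notes, the authors used kallisto 0.43.1 and the mouse build GRCm38 (mm10). The deposited estimated counts are shares of reads that kallisto assigned to a transcript, and 65.6% of nonzero gene values were not whole (beyond 1e-06). The authors also deposited TPM values, which correct for transcript length and have 1 common total in all libraries. The deposited gene matrices hold both units for 52459 symbols, and how genes were summed is not stated in the sources used here. Whether counting used strand is not given either, so sense and antisense reads may be mixed.

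Estimated counts were rounded and analysed in R 4.3.3 with edgeR 4.0.16 (limma 3.58.1): filterByExpr by genotype and treatment left 17732 genes, libraries were scaled by TMM, and glmQLFit with 8 group means and 6 residual degrees of freedom was followed by glmQLFTest. Both unreplicated groups, the SE-line wild type at KCl and at basal, were taken to have the spread of the other 6. Calls were made where p, adjusted by Benjamini-Hochberg over the genes of a comparison, was under 0.05; adjusted p-values are edgeR's except where DESeq2 is named. There were 12 comparisons: KCl against basal in each genotype and over all cultures, each mutant against its own wild-type littermates at basal, after KCl and in its response, and the SE line against the SA line at basal and in its response. Levels are TMM-scaled CPM. Errors of log2 values are standard errors of the fit, and intervals are 95%.

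The 9 members, the gene lists and the line comparisons were chosen with earlier results of these data known. The genes named were the members, the called genes of each pathway list or else those with the lowest p, summed marker lists, and for each member the 3 genes with the highest correlation of log2(CPM + 1), among genes averaging at least 1 CPM. Fezf2 and Tbr1 were named after their values were seen. Coordinates are 1-based GRCm38 positions from GENCODE M21. The model was tested on simulated data. Alternatives were DESeq2 1.42.0, RLE scaling, no filter, a replicate block, leaving out each library or wild-type culture 1 of the SA line, fits on fewer groups, and, chosen after seeing the data, each line alone for KCl.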

Additional observations from a re-analysis of the deposited data

Results flagged for a closer look

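The response of Shh to KCl differed between the lines by 2.33 on the log2 scale, SE line minus SA line (edgeR's quasi-likelihood test, adjusted p 0.00446). With libraries matched by replicate number, Shh was higher after KCl in 3 of 3 SE-line cultures and in 1 of 4 SA-line cultures.

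Ptch1 in the KCl libraries of the SA line had 1 library far from the other 3: wild-type culture 1 reached 77.6 CPM, and the others had 47.2, 49.1 and 52.1 CPM. Gli1 at basal in the SA line showed the same, with 6.17 CPM in wild-type culture 1, and 2.26, 1.88 and 1.49 CPM in the others. These were the 2 of 18 groups of 4 libraries whose extreme library lay past Dixon's 95% limit, and chance gives about 1 in 20.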

How the results depend on the processing

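The KCl response of Shh in SE passed under all 20 alternatives, and 6 of the 7 members lower in the SE line at basal under all 19. Hhip missed in 5, among them the wild-type groups alone (-1.28, adjusted p 0.0951). Shh for KCl in SA passed under DESeq2 (adjusted p 0.0463), and over all cultures, where the main value was 0.44 (adjusted p 0.0714), under DESeq2 (0.0199) and without the KCl library of SA-line wild-type culture 2 (0.00972). Over all cultures it was -0.56 with the SA line alone. In wild type it ran from -0.24 (without either SE-line wild-type library) to 0.59 on leaving out single libraries, and was -0.00079 without SA-line wild-type culture 1. SA minus wild type after KCl was 0.27 without that culture or its KCl library and -0.45 without the KCl library of the other; SE minus wild type after KCl was -0.044 with the replicate block, -0.0064 within its own line and -0.055 to 0.060 on leaving out the KCl library of SE culture 2 or 1. The line response of Shh was 1.86 with wild-type groups only. The causes were not tested.

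Genes called numbered 250 for KCl in wild type, 150 in SA, 295 in SE, 854 over all cultures, 8483 for the line at basal and 27 for the line response. Fits on the groups concerned alone gave 29 in wild type, 67 in SA, 961 in SE, 10 and 31 for SE minus wild type at basal and after KCl, and 4 for the SE response difference. DESeq2 gave 253 in SA, 126 and 1 for SA and SE minus wild type after KCl, 1 for the SE response difference and 66 for the line response. With no filter, SE minus wild type after KCl had 3 and the line response 56. Without SA-line wild-type culture 1, SA had 239. KCl over all cultures had 359 in the SA line and 499 in the SE line. Wild-type groups only gave 5067 for the line at basal and 2 for its response. Leaving out single libraries gave 135 to 235 in wild type, 68 to 167 in SA, 112 to 301 in SE, 590 to 835 over all cultures, 6261 to 8761 for the line at basal, 12 to 42 for its response, 0 to 1 for SA minus wild type at basal and after KCl, 0 to 1 for SE minus wild type after KCl and 0 to 1 for the SE response difference; no value could be had where this removed the only SE-line wild-type library of a comparison.

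Replicate numbers are not stated to pair KCl and basal libraries. Deviations from group means of same-numbered libraries correlated at 0.647 in SA, 0.836 in the SA-line wild type and -0.0996 in SE. The main tests therefore did not use the numbers as pairs. Ratios and counts per culture do match libraries by number. The count of SA-line cultures with less Shh after KCl depends on that matching. With the replicate block 829 genes were called for KCl in wild type, 613 in SA, 1024 in SE, 2328 over all cultures, 2 for the SE response difference and 146 for the line response. Shh was called in SA (adjusted p 0.0153) and over all cultures (0.00573) under that block. Gli1 and Hhip in the SE line are limited by depth, at 1 to 5 and 11 to 30 counts per library.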
